A study of Mus musculus with 14 samples.

Results

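WNT pathway genes were taken as the mouse genes whose symbols begin with Wnt, Fzd, Dkk, Sfrp or Dvl and a digit, or with Tcf7, together with Axin1, Axin2, Lef1, Lrp5, Lrp6, Ctnnb1, Apc, Nkd1, Nkd2, Rnf43, Znrf3, Notum, Wif1, Porcn and Wls. Membership is decided by the gene name alone. Of 58 symbols in the GENCODE M21 annotation that fit, 40 were among the 15119 genes measured here and 18 were not analysed here. The 40 comprised 6 Wnt ligands with Porcn and Wls, 12 receptors, 5 secreted inhibitors, 6 cytoplasmic transducers, 5 feedback inhibitors and 4 nuclear factors. The untreated mice were B6.Cg-Tg(Nes-EGFP)1Yamm animals, and RNA came from their dentate gyrus. In them Nestin regulatory elements drive GFP, and labels call the cells Nestin-positive precursors. Cells positive for GFP were sorted by dihydroethidium, a dye that reports reactive oxygen species (ROS), into 3 classes: ROS+ with 5 libraries, ROS++ with 5 and ROS+++ with 4. The labels give no age, sex, batch or animal, and nothing says that libraries came from separate animals: each p-value reflects spread among libraries that may be technical.

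WNT proteins are secreted lipid-modified ligands that bind Frizzled receptors and the coreceptors LRP5 or LRP6. Binding engages Dishevelled and stops a complex of Axin, APC and kinases from marking beta-catenin for destruction, so that beta-catenin enters the nucleus and acts with TCF and LEF factors. Secreted antagonists and membrane ubiquitin ligases limit the signal, and in the adult dentate gyrus WNT ligands from astrocytes are known to promote neuronal differentiation of precursors. Other branches of the pathway act through Frizzled without beta-catenin, for example in planar polarity and in vessels.

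Libraries held 12704227 to 25313902 reads over the measured genes, and levels are given as CPM, reads scaled to that total, as mean ± SD over the libraries of a class. For a gene without reads the upper limit is 3 reads, which is 0.119 to 0.236 CPM depending on the library and covers counting error only. Other cell types' markers differed strongly between classes, as the plot of marker lists shows. The summed level of 10 mural (pericyte and smooth muscle) genes was 17.8 to 500.5 in ROS+, 6911 to 21838 in ROS++, and 47801 to 55217 CPM in ROS+++, and all 10 rose in ROS++ and in ROS+++ against ROS+. The 10 neuroblast genes summed to 12085 to 17568, 965 to 2440 and 35.7 to 215 CPM, and all 10 fell in both. The 9 microglia and macrophage genes summed to 1.55 to 16.9, 780.1 to 1832 and 557 to 2209 CPM, and 10 astrocyte and radial glia-like genes to 1273 to 1921, 5876 to 8409 and 2463 to 7194 CPM. No marker of these lists was at 0 reads in every library of a class, but Lyz2, Mrc1 and C1qa stayed under 1 CPM in each ROS+ library and Neurod2, Neurod6 and Igfbpl1 in each ROS+++ library. Of 3 genes listed here for precursors (Nes, Sox2 and Eomes), 1 rose and 2 fell in ROS+++ against ROS+. Nes rose from 16.6 ± 4.63 to 95.5 ± 18.8 and 227 ± 77.7 CPM, whereas Eomes, of neuronal intermediate progenitors, was at 0.179 ± 0.0437 CPM in ROS+++. ROS++ replicate 5 had the lowest mural sum (6911 CPM), the lowest endothelial sum (29.1 CPM) and the highest neuroblast sum (2440 CPM) of its class. The part of cell composition in the changes below was not tested, and in bulk libraries fewer cells of a type and less RNA per cell cannot be told apart.

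**Figure D1:**
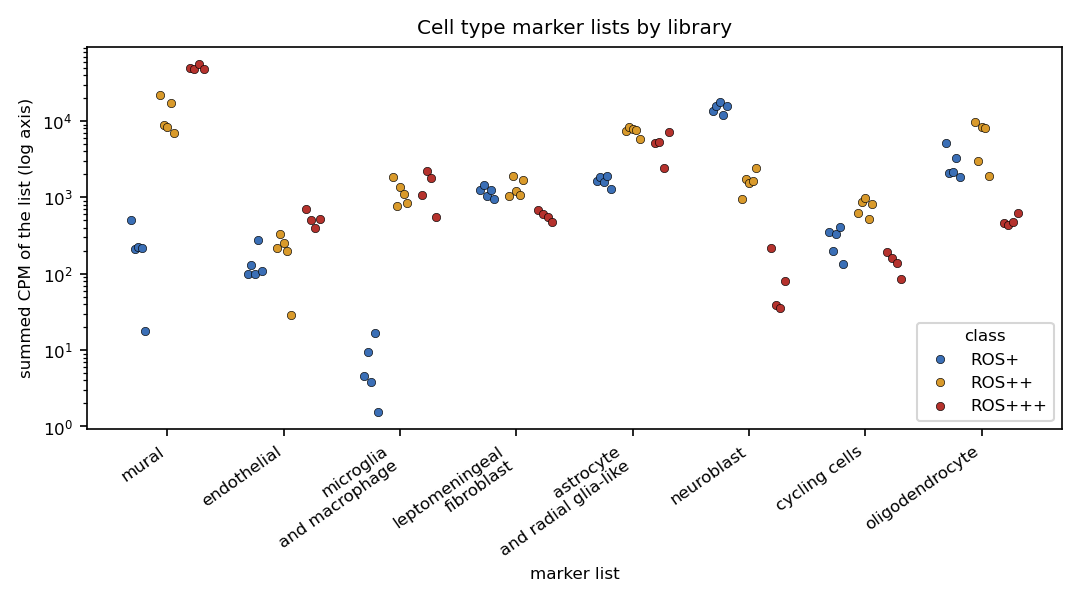
Summed CPM (log axis) of 8 cell type marker lists, 1 point per library, coloured by class. Mural sums lie highest in the 4 ROS+++ libraries (47801 to 55217 CPM) and neuroblast sums highest in the 5 ROS+ libraries (12085 to 17568 CPM).

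All 40 members passed the filter of at least 1 CPM in at least 4 libraries, and 27 differed among the 3 classes by limma's F-test at an adjusted p under 0.05 (67.5% of members, 61.5% of all 15102 genes tested). Of these 27, 14 had the order ROS+ < ROS++ < ROS+++ (14.8% of all genes tested passed with that order). The reverse order held for 6 of the 27 (28.3% of all genes tested passed with it). The highest mean lay in ROS++ for 7 of the 27. In 5 the minimum was ROS+++ (9.95% of all genes passed so), and in Fzd1 and Dkk3 it was ROS+ (4.56%). None of the 5 (Fzd3, Lrp6, Sfrp1, Tcf7l2 and Wnt7a) differed detectably between ROS++ and ROS+ (changes of 0.016 to 0.41, adjusted p of 0.36 to 0.961). These orders are by class mean, and a step within an order need not have passed. None of the 27 had its minimum in ROS++ (2.62% of all genes passed so with the maximum in ROS+, 1.27% with it in ROS+++). Among the 27, those highest in ROS+ and lowest in ROS+++ by class mean were Apc, Ctnnb1, Dvl3, Rnf43, Porcn and Sfrp4. The 14 in the opposite order were Wls, Wnt5b, Fzd5, Fzd6, Fzd10, Lrp5, Dkk2, Sfrp2, Axin2, Nkd2, Znrf3, Lef1, Tcf7 and Tcf7l1. Changes are differences of mean log2(CPM + 1) with their standard error (SE), which understate the change of genes near 0 in a class. Between ROS++ and ROS+ 11 members rose and 3 fell (14 of 40, against 29.6% of all genes, of which 16.4% rose and 13.2% fell). The comparison of ROS+++ with ROS+ had 15 members higher and 13 lower (70.0% called, against 59.2% of all genes, of which 19.2% rose and 40.0% fell). From ROS++ to ROS+++ 9 rose and 12 fell (52.5% called, against 39.1% of all genes, of which 9.89% rose and 29.2% fell). Libraries did not overlap for 8 members that were higher and 2 that were lower in ROS++ than in ROS+ (12.1% and 10.9% of all genes), for 14 and 10 in ROS+++ against ROS+ (16.8% and 33.2%), and for 6 and 6 in ROS+++ against ROS++ (7.48% and 19.5%). The 3 comparisons share libraries and are not independent. Median changes of the 40 members were 0.30, -0.06 and -0.36, beside -0.03, -0.44 and -0.34 over all genes tested.

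**Figure D2:**
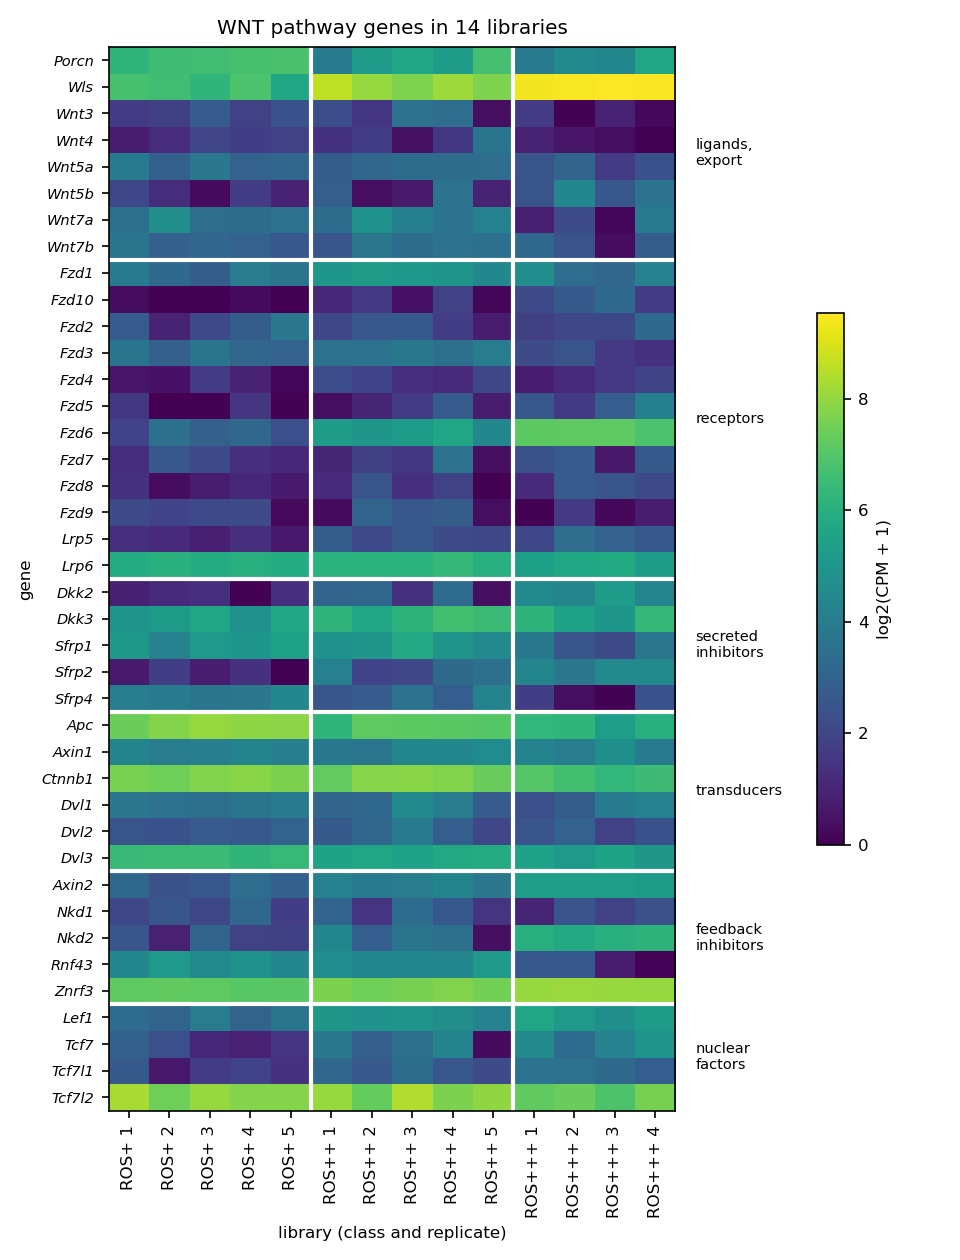
Level of the 40 members, as log2(CPM + 1), in each of 14 libraries, with genes in rows by role and libraries in columns by class. Wls, Znrf3 and Tcf7l2 are bright in every class, Fzd6 brightens from ROS+ to ROS+++, and most Wnt and Fzd genes stay dark.

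**Figure D3:**
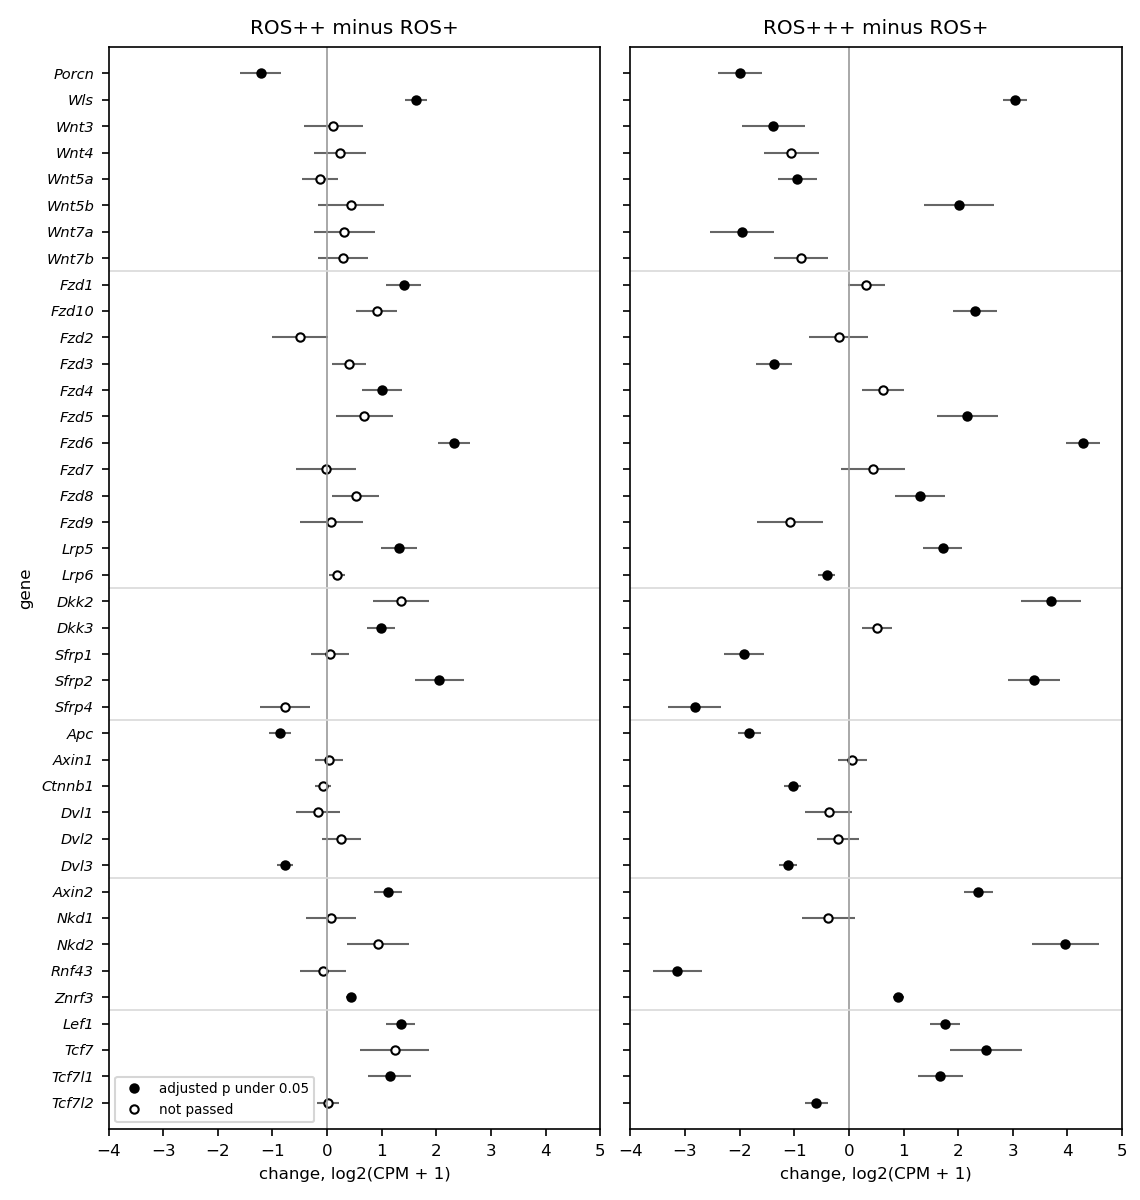
Change of each member on the log2(CPM + 1) scale, ROS++ minus ROS+ on the left and ROS+++ minus ROS+ on the right, with bars of 1 SE; filled points passed an adjusted p under 0.05. In the right panel Fzd6 (4.29) lies farthest to the right and Rnf43 (-3.15) farthest to the left.

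Ligand genes were low in all classes, while the gene for their carrier climbed and the gene for their acylating enzyme declined. Wls, the membrane protein that carries WNT proteins to the cell surface (chromosome 3, 159839672 to 159938664, GRCm38, ENSMUSG00000028173), read 109, 96.7, 73.9, 114 and 48.3 CPM in the ROS+ libraries, 398, 260.0, 205, 283 and 209 in ROS++, and 665, 705, 744 and 714 CPM in ROS+++. No library of one class overlapped another class. It rose by 1.63 ± 0.21 from ROS+ to ROS++ (adjusted p = 1.02e-05) and by 1.42 ± 0.22 from ROS++ to ROS+++ (adjusted p = 6.83e-05), and all alternatives kept these calls. Porcn, the acyltransferase that attaches the lipid to WNT proteins (chromosome X, 8193848 to 8206525, ENSMUSG00000031169), read 75.4 to 110.0 CPM in ROS+ with a median of 96.9 CPM, 14.7, 38.0, 50.1, 37.3 and 105 in ROS++, and 13.8, 21.8, 19.95 and 47.9 CPM in ROS+++. ROS++ replicate 5 thus lay at the ROS+ level while replicate 1 of that class lay far under it. Porcn fell by 2.00 ± 0.41 in ROS+++ against ROS+ (adjusted p = 0.000412) and by 1.22 ± 0.38 in ROS++ (adjusted p = 0.0226), and the second call ended without ROS+ replicate 5 or ROS++ replicate 1 (adjusted p of 0.0518 to 0.0583). From ROS++ to ROS+++ its change of -0.78 ± 0.41 (adjusted p = 0.137) passed without ROS++ replicate 1 or ROS+++ replicate 4 (adjusted p of 0.0133 to 0.0373).

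The 6 Wnt genes together summed to 37.6 ± 5.75 in ROS+, 47.7 ± 9.27 in ROS++, and 25.7 ± 13.3 CPM in ROS+++. Wnt7a is a ligand of neural precursors and of vessel development. Set per kilobase of exon length, it held 43.7% ± 13.8 of the 6 genes' summed level in ROS+ and 41.9% ± 15.3 in ROS++. In ROS+++ Wnt5b held 54.2% ± 20.2, with a range of 32.9 to 71.9%. Wnt7a and Wnt7b reached 41.6% and 33.2% in single ROS+++ libraries, and Wnt5b was not first in every library of that class. Wnt5b, a ligand best known from beta-catenin-independent signalling, read 0.223 to 3.24 CPM in ROS+ (median 1.39), 6.44, 0.268, 0.597, 11.5 and 0.928 in ROS++, and 4.53, 20.5, 4.95 and 11.6 CPM in ROS+++. All ROS+++ libraries lay above all ROS+ libraries, and ROS++ overlapped both. Its rise of 2.01 ± 0.64 in ROS+++ against ROS+ passed (adjusted p = 0.0123) but not without ROS+++ replicate 2 (adjusted p = 0.0517). Its change of 1.58 ± 0.64 against ROS++ did not pass (adjusted p = 0.0605), and did without ROS++ replicate 1 or 4 or without ROS+++ replicate 1 (adjusted p of 0.0111 to 0.0471) and with relative log expression factors (1.90, adjusted p = 0.0274). Wnt7a read 9.46 to 25.01 CPM in ROS+ (median 10.2), 9.32 to 29.2 CPM in ROS++ (median 16.2), and 0.764, 3.63, 0.0952 and 14.0 CPM in ROS+++. ROS+++ replicate 4 therefore lay among the other classes. Wnt7a fell by 1.95 ± 0.59 against ROS+ (adjusted p = 0.00842) and by 2.27 ± 0.59 against ROS++ (adjusted p = 0.00508). No Wnt gene passed between ROS++ and ROS+.

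Calls of the remaining ligand genes changed when single libraries were left out. Wnt3 averaged 3.53 ± 1.51, 5.35 ± 4.78 and 0.851 ± 1.01 CPM and was lower in ROS+++ than in ROS+ and ROS++ (adjusted p = 0.0451 and 0.0455). The first of these calls ended without any of ROS+ replicates 2 to 5 or ROS+++ replicates 2 to 4 (adjusted p of 0.055 to 0.127), and the second without any of 11 libraries, all except ROS++ replicates 2 and 5 and ROS+++ replicate 1 (adjusted p of 0.051 to 0.127). Both ended with relative log expression factors (adjusted p = 0.093 and 0.0826) and with limma-voom (adjusted p = 0.0636 and 0.0997). Wnt4 averaged 2.00 ± 0.964, 3.67 ± 4.78 and 0.409 ± 0.361 CPM, with 12.1 CPM in ROS++ replicate 5 alone. It passed only between ROS+++ and ROS++ (adjusted p = 0.0488), a call that ended without any of 12 libraries, all except ROS++ replicates 1 and 3 (adjusted p of 0.0509 to 0.118) and with relative log expression factors (adjusted p = 0.0812). The change against ROS+ (adjusted p = 0.0798) passed without ROS++ replicate 5 (adjusted p = 0.019) and with the log2 values as deposited (adjusted p = 0.0338). Wnt5a, another ligand of the beta-catenin-independent branch, averaged 9.64 ± 3.43, 8.45 ± 1.56 and 4.63 ± 2.23 CPM and fell in ROS+++ against ROS+ by 0.95 ± 0.35 (adjusted p = 0.0285), though not without ROS+ replicates 1 or 3 or ROS+++ replicate 3 (adjusted p of 0.071 to 0.109) or with relative log expression factors (fell by 0.58, adjusted p = 0.182). Against ROS++ its change of -0.82 passed without ROS+++ replicate 2 (adjusted p = 0.0356, against 0.0762). Wnt7b averaged 7.66 ± 2.44, 9.65 ± 2.95 and 4.78 ± 3.46 CPM and did not pass (adjusted p of 0.684, 0.134 and 0.0691 in the order above), and passed against ROS+ without ROS+++ replicate 1 (adjusted p = 0.0463) and against ROS++ without ROS++ replicate 1 or ROS+++ replicate 1 (adjusted p of 0.0251 to 0.0398).

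Among receptors Fzd6 rose at both steps. Its changes of 2.32 and 4.29 against ROS+ exceeded those of the other members on the log2(CPM + 1) scale. From ROS++ to ROS+++, however, Rnf43, Nkd2, Dkk2, Wnt7a and Sfrp4 changed more in size, up or down. Fzd6, a Frizzled receptor with a known role in planar polarity (chromosome 15, 39006034 to 39038188, ENSMUSG00000022297), read 2.80, 10.6, 6.69, 8.44 and 4.03 in ROS+, 36.6, 32.4, 35.7, 49.0 and 20.7 in ROS++, and 139, 143, 144 and 115 CPM in ROS+++. The 3 classes did not overlap. It rose by 2.32 ± 0.29 at the lower step (adjusted p = 8.34e-06) and by 1.97 ± 0.31 at the upper step (adjusted p = 7.66e-05), under all alternatives. A gene on the other strand, Gm26704, shares 3.15% of its exon length, and reads of such pairs cannot be told apart without strand. Per kilobase, Fzd6 held 16.4% ± 8.91 of the summed level of the 10 Frizzled genes in ROS+, 36.2% ± 4.83 in ROS++ and 74.2% ± 5.92 in ROS+++.

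The other Frizzled genes went several ways. Fzd1 was highest in ROS++, with 32.4, 37.2, 33.1, 29.4 and 21.0 CPM against 6.07 to 15.5 CPM in ROS+ and 7.95 to 24.9 CPM in ROS+++. It rose by 1.40 ± 0.33 into ROS++ (adjusted p = 0.00324), and its fall of 1.08 ± 0.35 into ROS+++ (adjusted p = 0.0193) was lost without ROS+++ replicate 2 or 3 (adjusted p of 0.0642 to 0.0761) and with relative log expression factors (adjusted p = 0.12). Fzd3, needed for axon tract formation, read 6.62 to 12.0 in ROS+, 10.6 to 14.9 in ROS++, and 3.68, 4.61, 2.00 and 1.57 CPM in ROS+++. All ROS+++ libraries lay below the rest, with falls of 1.37 ± 0.33 and 1.78 ± 0.33 against ROS+ and ROS++ (adjusted p = 0.00178 and 0.00038). Fzd10 had 0 reads in ROS+ replicates 3 and 5 and at most 0.237 CPM in that class, 0.109 to 2.71 in ROS++, and 2.20 to 8.67 CPM in ROS+++. It rose by 2.31 ± 0.40 against ROS+ and 1.41 ± 0.40 against ROS++ (adjusted p = 8.58e-05 and 0.00949), the second not with the log2 values as deposited (adjusted p = 0.0615). Between ROS++ and ROS+ it did not pass (adjusted p = 0.0808) except without ROS++ replicate 5 (adjusted p = 0.0293) and, among other settings, with the log2 values as deposited (adjusted p = 0.0222).

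Fzd5 averaged 0.764 ± 1.01, 2.03 ± 2.31 and 7.46 ± 6.25 CPM and rose in ROS+++ by 2.17 ± 0.56 against ROS+ (adjusted p = 0.00299). Its call against ROS++ (adjusted p = 0.0437) was lost without any of 9 libraries, all except ROS+ replicates 1, 2 and 4, ROS++ replicate 4 and ROS+++ replicate 2 (adjusted p of 0.0509 to 0.158) and with the log2 values as deposited (adjusted p = 0.164). Fzd8 averaged 0.842 ± 0.507, 1.99 ± 1.76 and 3.78 ± 1.97 CPM, and its rise of 1.31 ± 0.46 against ROS+ (adjusted p = 0.0213) was lost without ROS+ replicate 2 or ROS+++ replicates 2 or 3 (adjusted p of 0.0527 to 0.0726) and with the log2 values as deposited (adjusted p = 0.103). Fzd4 averaged 0.806 ± 0.822, 2.52 ± 1.10 and 1.71 ± 0.967 CPM and passed only between ROS++ and ROS+ (1.00 ± 0.36, adjusted p = 0.0451), a call lost without any of 9 libraries, all except ROS+ replicate 3, ROS++ replicates 3 and 4 and ROS+++ replicates 1 and 4 (adjusted p of 0.0509 to 0.125) and with limma-voom (adjusted p = 0.0537). Fzd2 and Fzd7 passed in no comparison and under no alternative, and Fzd9 only between ROS+++ and ROS++ without ROS++ replicate 1 (adjusted p = 0.0465, against 0.145), with means of 0.728 to 5.75 CPM for the 3 genes over the classes. The coreceptor gene Lrp5 (chromosome 19, 3584828 to 3686564) read 0.563 to 1.46 in ROS+, 3.22 to 5.97 in ROS++, and 3.15 to 9.52 CPM in ROS+++. ROS+ lay below the other classes in every library, and Lrp5 rose by 1.32 ± 0.34 and 1.72 ± 0.36 (adjusted p = 0.00611 and 0.000477). Lrp6, its close relative, averaged 60.5 ± 3.73, 69.1 ± 6.24 and 45.8 ± 8.31 CPM, and per kilobase it stood above Lrp5 in each class (4.43 against 0.113, 5.05 against 0.440 and 3.35 against 0.639 CPM per kilobase). Lrp6 fell in ROS+++ by 0.41 ± 0.16 against ROS+ (adjusted p = 0.0301) and by 0.60 ± 0.16 against ROS++ (adjusted p = 0.00526). When scaled instead by relative log expression factors, these values were 0.024 and -0.19 and did not pass (adjusted p = 0.918 and 0.414), and the first also did not pass without ROS+ replicates 2 or 4 or ROS+++ replicates 1 or 4 (adjusted p of 0.062 to 0.101).

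Secreted inhibitors split by class. Dkk2 encodes a Dickkopf protein that binds LRP5 and LRP6 (chromosome 3, 132085292 to 132180304, ENSMUSG00000028031). Its level was 0.790, 1.20, 1.43, 0.0426 and 1.45 in ROS+, 7.65, 7.94, 1.58, 9.15 and 0.327 in ROS++, and 22.1, 19.3, 37.7 and 19.3 CPM in ROS+++. ROS+++ lay above both other classes, which overlapped through ROS++ replicate 5. Dkk2 rose by 3.70 ± 0.55 against ROS+ and by 2.34 ± 0.55 against ROS++ (adjusted p = 1.58e-05 and 0.00238). Its change of 1.36 ± 0.51 from ROS+ to ROS++ missed the threshold (adjusted p = 0.0556) and passed without ROS++ replicate 3 or 5 (adjusted p of 0.004 to 0.0374). Sfrp2, a Frizzled-related protein that binds WNT ligands (chromosome 3, 83766321 to 83774316, ENSMUSG00000027996), read 0.632, 2.45, 0.669, 1.58 and 0.0469 in ROS+, 16.8, 2.79, 3.11, 8.94 and 10.4 in ROS++, and 19.8, 12.8, 23.0 and 22.5 CPM in ROS+++. ROS+ lay below every other library. Sfrp2 rose by 2.05 ± 0.45 into ROS++ (adjusted p = 0.00205) and stood 3.39 ± 0.48 above ROS+ in ROS+++ (adjusted p = 9.44e-06). Its upper step (1.34 ± 0.48, adjusted p = 0.0338) was lost without ROS++ replicates 2 or 3 or ROS+++ replicates 1, 3 or 4 (adjusted p of 0.062 to 0.0904) and with the log2 values as deposited (adjusted p = 0.162). Its exons overlap those of Gm26771 on the other strand over 16.1% of their length.

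Sfrp1 and Sfrp4, of the same family, went the other way. Sfrp1 read 17.8 to 42.7 CPM in ROS+ (median 33.1), 21.3 to 53.4 CPM in ROS++ (median 29.4), and 13.4, 4.66, 3.48 and 12.4 CPM in ROS+++, each below all libraries of the other classes. It fell by 1.92 ± 0.37 and 1.97 ± 0.37 (adjusted p = 0.000248 and 0.00041). Sfrp4 (chromosome 13, 19623104 to 19632994) read 12.0 to 21.1 CPM in ROS+ (median 13.9), 4.66, 5.90, 11.3, 6.24 and 18.3 in ROS++, and 2.39, 0.294, 0.0476 and 4.33 CPM in ROS+++. Again ROS++ replicate 5 sat at the ROS+ level and ROS+++ lay below both. Sfrp4 fell by 2.83 ± 0.48 against ROS+ and 2.05 ± 0.48 against ROS++ (adjusted p = 7.23e-05 and 0.0025). Dkk3, a divergent Dickkopf protein, had its highest mean in ROS++ (38.2 ± 10.7, 76.6 ± 19.6 and 57.0 ± 23.0 CPM). It rose there by 0.99 ± 0.26 against ROS+ (adjusted p = 0.00831). ROS++ and ROS+++ overlapped, and the change of -0.47 ± 0.28 between them did not pass (adjusted p = 0.193). Its change of 0.52 ± 0.28 in ROS+++ against ROS+ did not pass (adjusted p = 0.12). It did with relative log expression factors (0.95, adjusted p = 0.00721), with upper-quartile factors (0.81, adjusted p = 0.0195) and without ROS+++ replicate 3 (adjusted p = 0.0264).

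**Figure D4:**
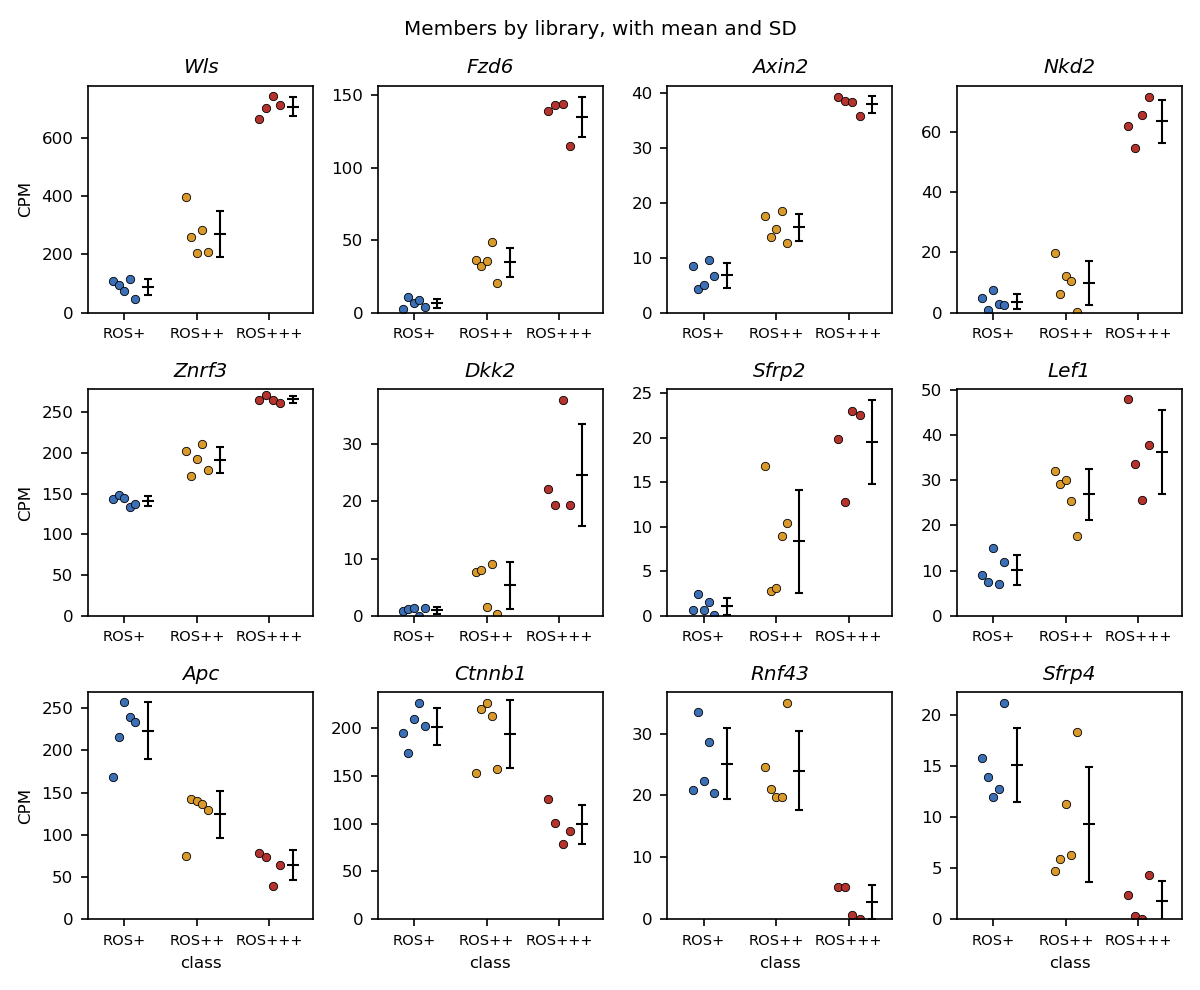
CPM of 12 members in each library by class, with the class mean and SD to the right of the points; each vertical axis starts at 0. Wls, Fzd6, Axin2 and Znrf3 step up without overlap between classes, while Ctnnb1, Rnf43 and Sfrp4 drop in ROS+++.

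Of the 6 cytoplasmic transducer genes, 3 fell in ROS+++ against ROS+ and none rose, beside 40.0% of all genes that fell and 19.2% that rose. Apc, the scaffold of the destruction complex (chromosome 18, 34220924 to 34322552, ENSMUSG00000005871), read 169, 216, 258, 239 and 234 in ROS+, 75.3, 142, 139.6, 136 and 129 in ROS++, and 78.5, 73.8, 39.1 and 63.8 CPM in ROS+++. ROS+ lay above the rest, and ROS++ replicate 1 fell within the ROS+++ range. Apc dropped by 0.86 ± 0.20 and then by 0.96 ± 0.21 (adjusted p = 0.00331 and 0.0016). Ctnnb1, which encodes beta-catenin (chromosome 9, 120929216 to 120960507, ENSMUSG00000006932), read 174 to 226 CPM in ROS+ (median 202), 153 to 227 CPM in ROS++ (median 212), and 126, 101, 78.2 and 91.9 CPM in ROS+++. ROS+ and ROS++ overlapped and ROS+++ lay below both, with falls of 1.03 ± 0.16 and 0.96 ± 0.16 (adjusted p = 2.03e-05 and 0.000107). The exons of Ctnnb1 share 14.6% of their length with Ulk4 on the other strand, which averaged 6.41 CPM.

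Dvl3 was the most abundant Dishevelled gene per kilobase in each class (13.3, 7.73 and 6.07 CPM per kilobase) and read 74.7 to 89.9 in ROS+, 42.9 to 57.5 in ROS++, and 32.3 to 44.9 CPM in ROS+++. It fell by 0.77 ± 0.15 in ROS++ against ROS+ with no overlap (adjusted p = 0.000782), and ROS++ and ROS+++ overlapped (adjusted p = 0.0985). The other 2 Dishevelled genes and Axin1 passed in no comparison and no alternative. Axin1, the constitutive scaffold of the complex, averaged 17.1 ± 1.75, 18.0 ± 4.80 and 18.3 ± 5.4 CPM, with changes of 0.03 ± 0.25, 0.06 ± 0.27 and 0.03 ± 0.27. Dvl1 averaged 12.1 ± 1.79, 11.8 ± 6.79 and 10.5 ± 6.43 CPM. Dvl2 averaged 5.36 ± 1.11, 7.27 ± 4.10 and 4.65 ± 1.76 CPM, and its exons overlap Acadvl, a gene at 85.2 CPM, over 18.3% of their length, so its level is uncertain.

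Feedback inhibitors, several of them induced by beta-catenin signalling in many tissues, also split. Axin2, the inducible Axin and a common readout of the pathway (chromosome 11, 108920349 to 108950783, ENSMUSG00000000142), read 8.41, 4.22, 5.04, 9.59 and 6.76 in ROS+, 17.5, 13.8, 15.2, 18.6 and 12.6 in ROS++, and 39.3, 38.6, 38.3 and 35.7 CPM in ROS+++. The classes did not overlap, and Axin2 rose by 1.12 ± 0.25 and then by 1.25 ± 0.27 (adjusted p = 0.00254 and 0.00125) under all alternatives. Znrf3, a membrane ubiquitin ligase that removes Frizzled receptors (chromosome 11, 5276324 to 5444847, ENSMUSG00000041961), read 143, 149, 145, 133 and 137 in ROS+, 202, 172, 193, 211 and 179 in ROS++, and 265, 272, 266 and 261 CPM in ROS+++. These classes were also apart, with small steps of 0.43 ± 0.09 and 0.47 ± 0.10 (adjusted p = 0.00162 and 0.000907) that held under all alternatives.

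Rnf43, the partner ligase of Znrf3 with the same targets (chromosome 11, 87662722 to 87735539, ENSMUSG00000034177), moved oppositely. It read 20.9, 33.5, 22.4, 28.7 and 20.4 in ROS+, 24.7, 21.0, 19.8, 19.7 and 34.9 in ROS++, and 5.25, 5.15, 0.714 and 0.0787 CPM in ROS+++. Only ROS+++ stood apart, with falls of 3.15 ± 0.45 and 3.07 ± 0.45 (adjusted p = 1.1e-05 and 3.85e-05), and ROS++ did not differ detectably from ROS+ (-0.07 ± 0.42, adjusted p = 0.921). Nkd2, which encodes a Dishevelled-binding inhibitor (chromosome 13, 73818534 to 73847631, ENSMUSG00000021567), read 4.78, 0.816, 7.49, 2.73 and 2.53 in ROS+, 19.7, 6.22, 12.0, 10.5 and 0.327 in ROS++, and 61.7, 54.7, 65.6 and 71.6 CPM in ROS+++. All ROS+++ libraries exceeded the others by a wide gap, and ROS++ replicate 5 was the lowest of all 14. Nkd2 rose by 3.96 ± 0.61 and 3.03 ± 0.61 (adjusted p = 2.47e-05 and 0.000728) into ROS+++. Between ROS++ and ROS+ it passed only without ROS++ replicate 5 (adjusted p = 0.00653, against 0.244). Nkd1, its paralog, averaged 4.37 ± 2.41, 5.06 ± 3.33 and 3.16 ± 1.68 CPM and passed in no comparison and no alternative.

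Promoters were read from RefSeq (GRCm38.p6), and 34 starts for 25 of the members were searched. Starts of the other members were not searched, whether or not RefSeq holds them, while the shares over all promoters were not limited to members. The 250 bases before each start were searched on both strands for ATCAAAG and TTCAAAG, words bound by TCF and LEF factors that differ in their first base. A word was found in 7.48% of all 32851 promoters and in 1 of the 34 member starts, an internal start of Wnt5b. The 2 other Wnt5b starts hold no such word, and the one at the 5′ end of the gene has 75.2% GC and 35 CG pairs. Those of 3 members are printed 5′ to 3′ on the gene's strand, because Axin2 and Nkd2 are feedback genes that rose into ROS+++ and Wnt5b is the ligand that rose, with the word found in capitals.
Axin2, chr11:108920099-108920348, plus strand: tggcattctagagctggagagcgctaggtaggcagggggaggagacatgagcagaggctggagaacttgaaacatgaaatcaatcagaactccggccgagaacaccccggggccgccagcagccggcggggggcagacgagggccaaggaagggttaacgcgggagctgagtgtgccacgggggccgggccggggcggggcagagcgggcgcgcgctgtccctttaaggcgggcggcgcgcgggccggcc
Nkd2, chr13:73847632-73847881, minus strand: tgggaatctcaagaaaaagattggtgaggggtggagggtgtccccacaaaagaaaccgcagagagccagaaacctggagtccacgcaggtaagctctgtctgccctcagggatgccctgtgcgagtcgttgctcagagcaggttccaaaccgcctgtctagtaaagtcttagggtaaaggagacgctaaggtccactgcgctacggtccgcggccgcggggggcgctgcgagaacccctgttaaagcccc
Wnt5b, chr6:119449387-119449636, minus strand: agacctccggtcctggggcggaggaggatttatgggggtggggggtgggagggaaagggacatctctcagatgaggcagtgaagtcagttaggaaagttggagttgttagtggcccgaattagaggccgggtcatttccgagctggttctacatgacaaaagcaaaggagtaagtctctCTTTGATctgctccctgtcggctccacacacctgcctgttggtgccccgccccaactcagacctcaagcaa
The word in Wnt5b begins 71 bases before the start and is the reverse complement of ATCAAAG. GC content was 69.2% for Axin2, 58.4% for Nkd2 and 55.6% for the printed Wnt5b start, beside a median of 52.4% over all promoters, and CG pairs numbered 24, 14 and 7 (median 6). A match is a description of the sequence, and its absence says only that these letters are not in this window.

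Of the nuclear factors 3 climbed and the most abundant one did not. Lef1 (chromosome 3, 131110471 to 131224356, ENSMUSG00000027985) read 9.05, 7.49, 15.1, 7.12 and 11.8 in ROS+, 32.1, 29.1, 29.97, 25.5 and 17.7 in ROS++, and 48.1, 33.6, 25.7 and 37.9 CPM in ROS+++. ROS+ lay below both other classes, which overlapped. Lef1 rose by 1.35 ± 0.26 and by 1.76 ± 0.28 against ROS+ (adjusted p = 0.00075 and 3.28e-05). Its upper step of 0.41 ± 0.28 (adjusted p = 0.254) passed only with relative log expression factors (0.82, adjusted p = 0.026).

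Tcf7 read 0.853 to 6.72 CPM in ROS+ (median 1.69), 13.7, 6.49, 10.4, 18.9 and 0.218 in ROS++, and 21.2, 9.23, 17.9 and 29.6 CPM in ROS+++. It rose by 2.51 ± 0.66 in ROS+++ against ROS+ with no overlap (adjusted p = 0.00353), and passed in ROS++ only without ROS++ replicate 5, the lowest library of all (adjusted p = 0.00441, against 0.151). Tcf7l1, a mostly repressive TCF factor, averaged 2.53 ± 1.83, 6.36 ± 2.43 and 9.39 ± 2.50 CPM and rose by 1.67 ± 0.41 in ROS+++ against ROS+ (adjusted p = 0.00207). Its rise of 1.15 ± 0.39 in ROS++ (adjusted p = 0.033) was lost without ROS+ replicates 2, 3 or 5 or ROS++ replicates 1 or 3 (adjusted p of 0.0588 to 0.1). Tcf7l2 (chromosome 19, 55741820 to 55933654, ENSMUSG00000024985) averaged 236 ± 52.6, 242 ± 70.1 and 155 ± 31.7 CPM, with ranges of 170.4 to 309, 154 to 342 and 116 to 192 CPM that overlapped. It held 90.4% ± 2.28 of the summed level of the 4 TCF and LEF genes per kilobase in ROS+, 76.3% ± 9.04 in ROS++ and 55.9% ± 6.22 in ROS+++. It fell in ROS+++ by 0.60 ± 0.21 against ROS+ and by 0.62 ± 0.21 against ROS++ (adjusted p = 0.0194 and 0.0256). With relative log expression factors these values were -0.16 and -0.20 and did not pass (adjusted p = 0.54 and 0.491). The first call also ended without ROS+ replicate 1 or ROS+++ replicate 3 (adjusted p of 0.0567 to 0.0774), and the second without ROS++ replicates 1 or 3 or ROS+++ replicates 1 or 3 (adjusted p of 0.0509 to 0.0971).

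Genes of the pathway outside the name rule were read from lists set by textbook role. Their counts stand beside the shares of all genes: 16.4% rose and 13.2% fell in ROS++ against ROS+, 19.2% and 40.0% in ROS+++ against ROS+, and 9.89% and 29.2% from ROS++ to ROS+++. Of 6 other receptors and coreceptors measured, 3 rose in ROS++ and 5 in ROS+++ against ROS+, and 2 rose from ROS++ to ROS+++, with no fall (16.4%, 19.2% and 9.89% of all genes rose). The WNT5A receptor gene Ror1 climbed from 0.639 ± 0.889 to 7.52 ± 4.67 and 26.4 ± 5.88 CPM (2.35 ± 0.41 and 1.83 ± 0.44, adjusted p = 0.000311 and 0.00299) and the pseudokinase receptor gene Ryk from 24.1 ± 4.87 to 45.7 ± 7.86 and 73.7 ± 16.6 CPM. The R-spondin receptor gene Lgr4 rose by 1.60 ± 0.23 in ROS++ and 2.07 ± 0.25 in ROS+++ against ROS+ (adjusted p = 4.28e-05 and 1.24e-06), while Lgr5 was lower in ROS+++ than in ROS+ (-0.90 ± 0.37, adjusted p = 0.0461). Of 6 other secreted or membrane inhibitors, 1 rose and 1 fell in ROS++ and 1 rose and 3 fell in ROS+++ against ROS+, and 4 fell from ROS++ to ROS+++. In ROS+++ against ROS+ 40.0% of all genes fell, so 3 of 6 lies near that share. Frzb, a further Frizzled-related protein, peaked in ROS++ (19.1 ± 3.73, 99.5 ± 10.3 and 42.8 ± 28.8 CPM), and Draxin, an axon guidance protein that antagonises WNT signalling, declined (66.5 ± 15.1, 31.4 ± 12.8 and 1.07 ± 1.17 CPM).

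Of 14 kinase and scaffold genes of the destruction complex 6 fell in ROS++ (13.2% of all genes did) and 5 in ROS+++ (40.0% of all genes did) against ROS+, and none rose. The count in ROS+++ is thus no higher than the share of all genes. Gsk3b, the kinase that marks beta-catenin, averaged 1394 ± 121, 787 ± 81.7 and 669.5 ± 37.6 CPM and fell by 0.83 ± 0.09 and 1.05 ± 0.09 against ROS+ (adjusted p = 1.14e-06 and 2.92e-08). From ROS++ to ROS+++ 2 of the 14 rose and 2 fell. Among 13 nuclear cofactors 1 rose and 3 fell in ROS++, 2 rose and 6 fell in ROS+++ against ROS+, and 1 rose and 5 fell at the upper step. In ROS+++ against ROS+ these counts lie near the shares of all genes (19.2% and 40.0%). The acetyltransferase gene Crebbp fell by 0.64 ± 0.10 in ROS++, the beta-catenin adaptor gene Pygo1 by 1.47 ± 0.23 in ROS+++, and the corepressor gene Tle1 rose by 1.64 ± 0.33 in ROS+++, all against ROS+.

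Of 12 textbook targets of beta-catenin outside the members, 3 rose and 4 fell in ROS++, 4 rose and 6 fell in ROS+++ against ROS+, and 3 rose and 4 fell at the upper step, beside 19.2% and 40.0% of all genes in ROS+++ against ROS+. Neurod1 and Prox1, both also on the neuroblast list, fell by 9.08 ± 0.39 and 6.37 ± 0.48 in ROS+++ against ROS+, and Id2, an inhibitor of bHLH factors, by 2.59 ± 0.15. Of 13 planar polarity genes 6 rose and 1 fell in ROS++, 5 rose and 3 fell in ROS+++ against ROS+, and 3 rose and 2 fell at the upper step, where the shares of all genes that rose were 16.4%, 19.2% and 9.89%. Vangl1, a core planar polarity membrane protein, climbed from 18.5 ± 3.04 to 36.1 ± 14.5 and 148 ± 40.3 CPM, the formin gene Daam2 from 10.6 ± 9.57 to 61.3 ± 29.5 and 141 ± 12.5 CPM, and the GTPase gene Rhoa from 109 ± 13.2 to 168 ± 13.1 and 224 ± 7.25 CPM.

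The balance of calls in ROS+++ depended on the scaling between libraries. The share of reads held by the top 10 genes was 11.2 to 12.1% for ROS+++ libraries, against 5.62 to 7.23% elsewhere, and relative log expression factors moved the median change of all genes in ROS+++ against ROS+ from -0.44 to -0.04, and upper-quartile factors to -0.17. Against ROS+ the members then numbered 16 higher and 9 lower with either set of factors, beside 15 and 13 with library totals. Against ROS++ they numbered 11 higher and 7 lower with relative log expression factors and 10 and 7 with upper-quartile factors, beside 9 and 12. Shares of all genes called were counted with library totals only. Whether the balance under the other factors is particular to the members therefore cannot be told. Falls of Apc, Ctnnb1, Dvl3, Rnf43, Porcn, Sfrp1, Sfrp4, Fzd3 and Wnt7a against ROS+ passed under all 3 scalings.

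**Figure D5:**
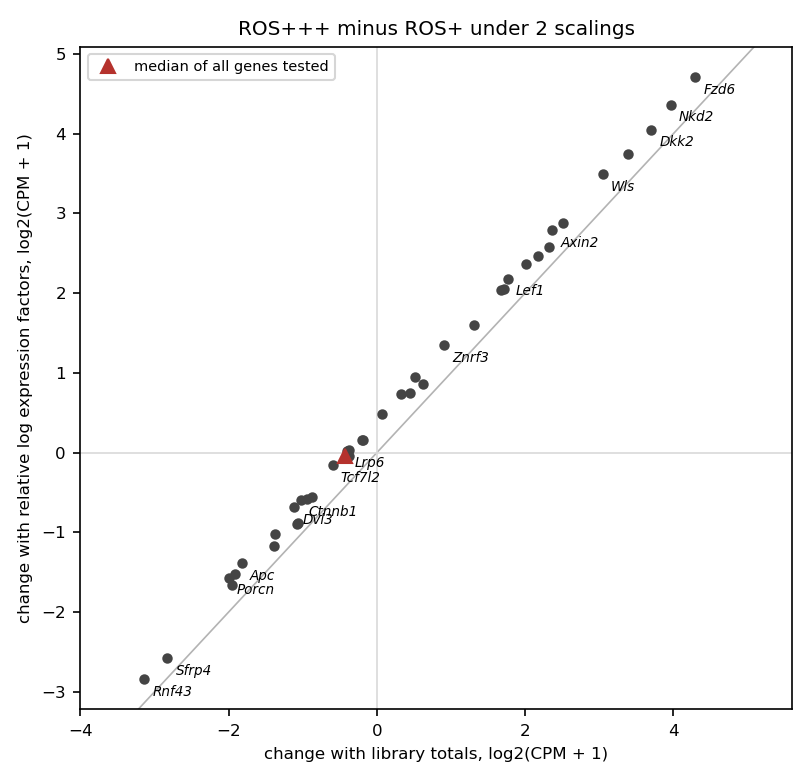
Change of each of the 40 members from ROS+ to ROS+++, with library totals on the horizontal axis and relative log expression factors on the vertical axis, both as log2(CPM + 1); the grey line marks equal values and the triangle the median of all genes tested. Every member lies above the line, and Lrp6 moves from -0.41 to 0.024.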

How the data were processed

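Bulk RNA was measured in 14 libraries of sorted dentate gyrus cells. The authors deposited 1 table of log2 values. Build mm10 and the tools STAR and edgeR are named per the submitters' processing notes; how reads were counted, and against which annotation, was not given in the sources used here. After a prior is subtracted, the deposited log2 values (lowest -4.36) are whole multiples of 1 read, with a largest deviation of 1.6e-08 reads, so reads were recovered and scaled to library totals. Symbols were matched for 15060 of 15119 genes, with GENCODE M21 (GRCm38) for coordinates and merged exon lengths. Values of log2(CPM + 1) for 15102 genes with at least 1 CPM in at least 4 libraries were fitted with limma-trend (limma 3.58.1, robust settings, R 4.3.3), a mean per class and 11 residual degrees of freedom, and Benjamini-Hochberg adjustment over all genes at 0.05. The deposited unit is log2, so no count model was the main test; limma-voom on the recovered reads was an alternative. Per the labels' protocols, cDNA was amplified by PCR and libraries mark no strand or molecule, so reads of overlapping genes cannot be separated and duplicates are counted. The fit was also run on simulated data with a fixed spread and few changed genes. These data differ in both, so no conclusion is drawn from that run. All members are named; genes of other lists are named among the 3 smallest F-test p-values, except Nes, Eomes and markers under 1 CPM, named after values were seen. The members and lists were chosen with earlier results of these data known. The 26 pairs of replicates correlated at 0.873 to 0.967 across genes, and none was taken as 1 library deposited again.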

Additional observations from a re-analysis of the deposited data

Results flagged for a closer look

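Within each class, the highest or lowest library of each member was compared with the rest by its gap over the class range, on the log2(CPM + 1) scale. Of 120 groups, 6 held a library that stood apart, and chance gives about 1 in 20. Wnt7a was 25.01 CPM in ROS+ replicate 2, against 9.46 to 11.2 CPM in the other ROS+ libraries. Fzd2 was 8.58 CPM in ROS+++ replicate 4, against 2.53 to 3.14 CPM. Fzd6 was 115 CPM in the same library, against 139 to 144 CPM. Fzd9 was 0.188 CPM in ROS+ replicate 5, against 2.78 to 3.67 CPM. Lrp6 was 80.0 CPM in ROS++ replicate 4, against 64.2 to 67.9 CPM. Apc was 75.3 CPM in ROS++ replicate 1, against 129 to 142 CPM.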

How the results depend on the processing

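Each comparison was refitted under 23 alternatives: 2 other pseudocount scales, 2 other filters, 2 other scalings, limma-voom on recovered reads, limma without robust settings, a replicate block, and 14 fits that each left out 1 library. Counts of members called stayed within 1.5 times the reported count in all of them. Leaving out 1 library gave 11 to 17 calls between ROS++ and ROS+ (14 reported), 25 to 29 between ROS+++ and ROS+ (28), 15 to 22 between ROS+++ and ROS++ (21) and 26 to 30 by the F-test (27). Of the calls, 11 of 14, 22 of 28 and 13 of 21 held under every alternative, and members not called but called under some numbered 4, 3 and 6. Among changes that passed under some setting, 1 changed direction: Lrp6 in ROS+++ against ROS+, at 0.024 with relative log expression factors. The cause was not tested. Of changes that passed under no setting, 21 values in 16 members changed sign under at least 1 alternative, none beyond 0.31 in size, among them Fzd2, Dvl1 and Dvl2 in ROS+++ against ROS+ with relative log expression factors (0.16, 0.026 and 0.16). Serial library numbers in the titles run in 5 sets that start at a ROS+ library, and no label says what a set shares. With these sets as a replicate block, chosen after seeing the data, calls numbered 13, 28, 22 and 27 in the same order. Under the block the fall of Porcn (-1.002, adjusted p = 0.0111) and rise of Wnt5b (1.83, adjusted p = 0.0292) from ROS++ to ROS+++ passed, and the calls of Fzd4 in ROS++ against ROS+ (adjusted p = 0.0702) and Fzd5 in ROS+++ against ROS++ (adjusted p = 0.0503) did not. Deviations from class means correlated above 0.1 in 3 of 13 pairs within a set and 2 of 52 pairs between sets, and 10 of 14 libraries correlated best with one of their own set, a hint from the data and not the design. Genes of a few CPM, such as Fzd4, Fzd5, Fzd8, Wnt3 and Wnt4, have the least certain calls, and the floor of 3 reads limits what can be said of Fzd10 in ROS+.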
